A study of Rattus norvegicus with 8 samples.

Results

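Genes of the Wnt pathway were read in oligodendrocyte precursor cells (OPCs) of the rat, proliferating glia from which myelinating oligodendrocytes develop. Members were taken from the deposited table by symbol: the Wnt ligands, the Frizzled (Fzd), Dkk, Sfrp, Dvl and Axin families, and Lrp5, Lrp6, Ctnnb1, Apc, Lef1, Tcf7, Tcf7l1, Wif1 and Notum. The rule found 50 of 32883 genes and used no measured value. Of the Axin family it found Axin2 only, since no gene was listed under the symbol Axin1. Both groups were primary cultures of Sprague Dawley cerebral cortex from pups of 1 to 2 days. Mixed glia were grown in DMEM with 20% serum, and the cells that did not adhere were kept for 4 to 5 days in Neurobasal medium with 2% B27, PDGF and FGF, each at 10 ng/ml. The groups differed in the sex of the animals, with 4 libraries from male and 4 from female cultures. The labels do not tell whether the 4 cultures of a sex stem from different animals. The p-values below therefore speak to the spread among these 8 samples alone, and that spread may be technical. Each culture is named by its sex and replicate number.

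Wnt proteins are secreted lipid-modified ligands that bind Frizzled receptors together with the co-receptors Lrp5 and Lrp6. Without a ligand, a destruction complex built on Axin and Apc marks β-catenin, the product of Ctnnb1, for degradation. Ligand binding recruits Dishevelled (Dvl) proteins, β-catenin accumulates, and in the nucleus it joins DNA-binding factors of the TCF/LEF family, while Sfrp, Dkk and Wif1 proteins act outside the cell on ligands or co-receptors. In the oligodendrocyte lineage strong activity of this pathway is known to delay the maturation of precursors, and Wnt7a and Wnt7b are ligands that precursors themselves make.

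Values were the authors' FPKM, fragments scaled by transcript length and library size, so levels of different genes can be compared. The number of genes above 0 ran from 12709 to 14014 per library. Absolute depth is unknown. Relative depth, read from the steps between low values and set to 1 in male 1, ran from 0.553 to 1 in the male and 0.303 to 0.981 in female libraries. The deviations of male 1 and female 3 from the mean of their sex were alike (r = 0.42 across 8307 genes, which are not independent replicates). These were also the deepest libraries of their sex, at 1 and 0.981, with male 3 (0.769) and female 4 (0.534) next. The part of depth in this likeness was not tested. The precursor label holds for the defining genes Pdgfra (means of 229 FPKM in male and 303 in female cultures), Cspg4 (90.9 and 118), Olig2 (258 and 304) and Sox10 (193 and 245). Of 7 OPC markers tested, 3 were higher in female cultures (Pdgfra, Sox10 and Gpr17, the last with means of 43.1 and 143 FPKM), and their summed level was 2018 to 2134 FPKM in male and 2430 to 2683 in female libraries. Of 10 tested markers of microglia and macrophages, 7 were higher in female cultures, namely C1qa, C1qb, C1qc, Cd68, Csf1r, Aif1 and Cx3cr1 (sums of 34.7 to 49.7 against 136 to 162 FPKM). The microglial genes C1qa, Aif1 and Cx3cr1 had means of 9.56, 2.68 and 0.475 FPKM in male and 39.0, 8.57 and 2.47 in female cultures. Of 8 oligodendrocyte markers 2 were higher in female cultures, Cnp (268 and 409 FPKM) and Myrf (5.16 and 14.0). The list summed to 550 to 639 against 671 to 809 FPKM with a median log2 difference of -0.025, while Mbp averaged 200 FPKM in both sexes and Mog 3.73 and 2.16. Of 8 neuron markers, 4 were higher in male cultures, Gad1 (19.2 and 3.93 FPKM), Gad2 (8.94 and 3.02), Syt1 (21.0 and 11.7) and Stmn2 (9.33 and 5.76). The neuron list summed to 197 to 220 against 174 to 193 FPKM. Its tested members that were not called had means of 13.8 and 8.57 FPKM for Snap25, 69.8 and 80.9 for Dcx, 63.9 and 65.9 for Tubb3 and 2.89 and 3.29 for Rbfox3. Astrocyte markers summed to 202 to 222 FPKM in male and 199 to 219 in female libraries, with 0 of 7 called by limma-trend. Gfap averaged 2.39 and 1.96 FPKM, and Aqp4 and Aldh1l1 reached at most 0.273 and 0.443 FPKM. The endothelial markers summed to at most 0.448 FPKM and the mural and fibroblast markers to at most 2.79, with Cldn5 and Dcn listed at 0 in all 8 libraries, and Pdgfrb, Col1a1 and Ttr at most at 0.212, 0.0355 and 1.01 FPKM. Of 3 Schwann cell markers tested 1 was higher in male cultures, Egr2 (3.55 and 0.278 FPKM). Tests of these markers are by limma-trend as defined below.

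To show the stretch of DNA where TCF/LEF factors could bind, promoters are printed for the feedback target Axin2 and for the members that differed between the sexes, Sfrp2 and Dvl3. Each holds the 250 bases before the start of the gene in RefSeq (build GRCr8), read 5′ to 3′ along the gene. These are chr10:94398535-94398784 on the plus strand for Axin2, chr2:171387286-171387535 on the plus strand for Sfrp2 and chr11:93886904-93887153 on the minus strand for Dvl3. Capitals mark the core TCF/LEF letters CTTTGA, searched on both strands (as TCAAAG on the other).
Axin2: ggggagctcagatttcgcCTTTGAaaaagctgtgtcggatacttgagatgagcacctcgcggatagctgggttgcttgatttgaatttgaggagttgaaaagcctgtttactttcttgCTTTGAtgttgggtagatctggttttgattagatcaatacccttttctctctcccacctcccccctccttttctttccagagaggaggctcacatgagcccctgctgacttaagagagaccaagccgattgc
Sfrp2: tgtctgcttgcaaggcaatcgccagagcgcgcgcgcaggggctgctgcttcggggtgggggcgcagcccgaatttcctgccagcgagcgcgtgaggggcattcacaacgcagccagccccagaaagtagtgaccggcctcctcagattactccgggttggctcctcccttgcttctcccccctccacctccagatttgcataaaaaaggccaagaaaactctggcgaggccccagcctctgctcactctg
Dvl3: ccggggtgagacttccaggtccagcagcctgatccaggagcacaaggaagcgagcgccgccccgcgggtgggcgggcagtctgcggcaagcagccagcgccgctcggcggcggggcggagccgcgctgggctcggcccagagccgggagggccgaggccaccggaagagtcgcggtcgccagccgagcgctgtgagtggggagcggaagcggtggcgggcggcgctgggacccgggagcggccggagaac
The Axin2 window held 2 matches, starting 232 and 132 bases before the gene, and the other windows held none. Among the 33469 RefSeq promoters, 13.9% held at least 1 match and 1.4% held 2 or more. Of the 26 members tested below, 16 had a promoter in the table, and Axin2 was the only one of them with a match. A match describes letters and is no evidence of binding.

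Of the 50 members, 26 averaged 1 FPKM or more and were tested, 14 were above 0 in some library but under that mean, and 10 were listed at 0 throughout. Differences were taken as log2(FPKM + 1) in male less that in female cultures, a scale that understates the change of low genes, with their standard error. Below, called means a limma-trend adjusted p (Benjamini-Hochberg, over all 11263 tested genes) under 0.05. Of the 26 tested members 2 were called, Sfrp2 and Dvl3, both higher in female cultures, and none was called as higher in male cultures. Among all tested genes 6.04% were called, 2.89% as higher in female and 3.14% as higher in male cultures, so the members' share of 7.69% is near the background. At an unadjusted p under 0.05 there were 9 members, 3 towards male and 6 towards female cultures, or 34.6% against 21.2% of all genes. Values of the sexes did not overlap for 8 members (30.8%, against 14.0% of all genes), 5 with the female libraries above (6.77% of all genes) and 3 with the male ones above (7.26% of all genes). The median difference of the tested members was -0.16, beside -0.0038 over all tested genes.

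**Figure D1:**
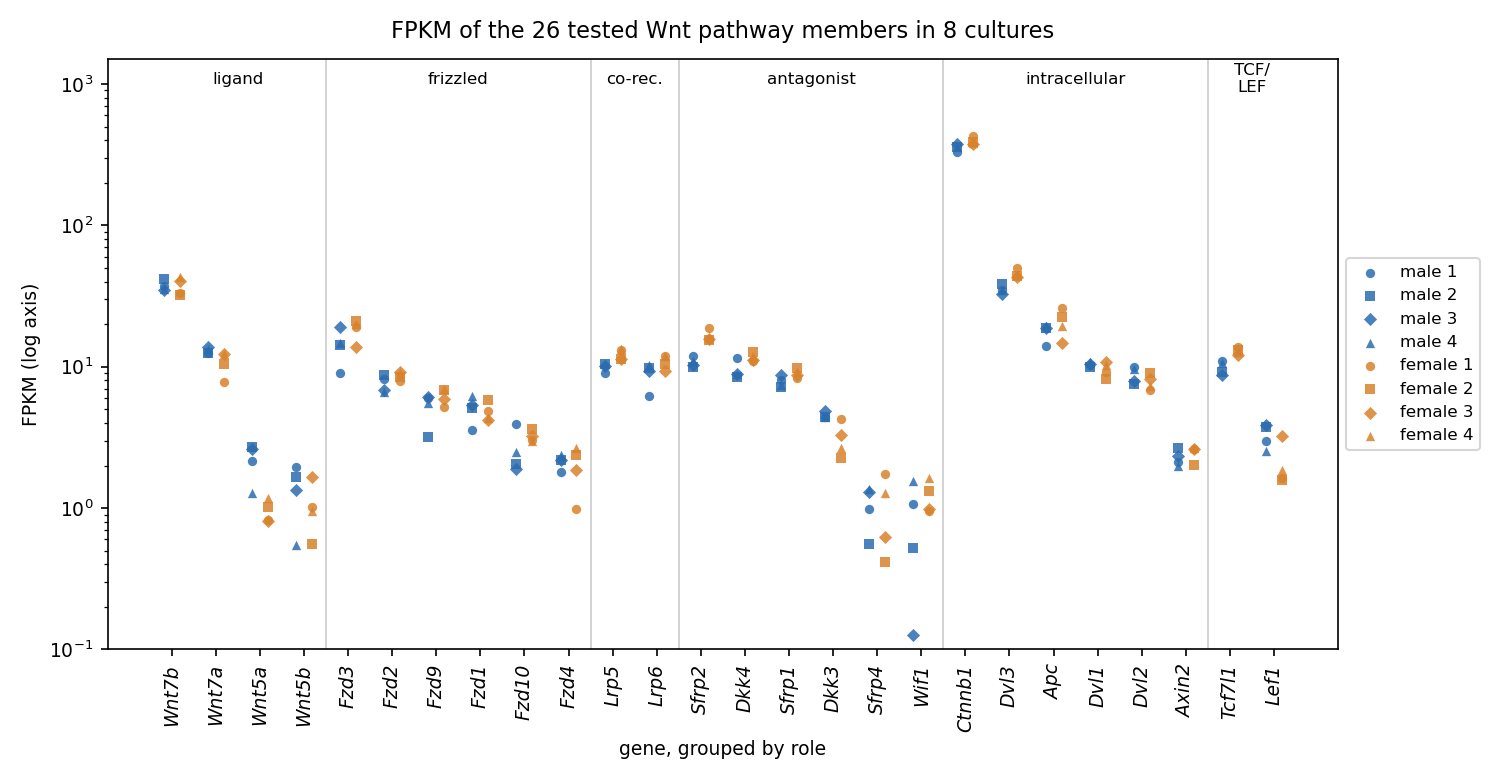
FPKM on a log axis of the 26 tested members, grouped by role, with 1 symbol per library (blue male, orange female, shapes for replicates 1 to 4). Ctnnb1 stands above all other members at 331 to 426 FPKM, Wnt7b leads the ligands, and the sexes overlap for most genes.

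Wnt7b and Wnt7a made up most of the ligand RNA, and 15 of the 19 ligand genes were near or at 0. Wnt7b (ENSRNOG00000015750) stood at 37.3, 41.8, 34.8 and 35.6 FPKM in male cultures 1 to 4 and at 33.0, 32.4, 40.3 and 43.4 FPKM in female cultures 1 to 4. The sexes overlapped fully (37.4 ± 3.11 against 37.3 ± 5.41 FPKM, SD, n = 4; log2 difference 0.01 ± 0.11, 95% interval -0.22 to 0.25, limma-trend adjusted p = 0.969). The sign of this difference turned under quantile and upper quartile normalization and with relative depth in the model. Of the summed FPKM of all 19 ligands, Wnt7b held 65.6% to 70.6% in male and 71.0% to 75.4% in female libraries. These shares did not overlap, but male 2 (70.6%) and female 2 (71.0%) were close. A share also depends on the other ligands, and the level of Wnt7b itself overlapped fully. Wnt7a (means of 13.0 FPKM in male and 10.7 in female cultures) and Wnt5a (2.19 and 0.957) were not called. The sum itself was 51.1 to 59.2 FPKM in male and 43.8 to 59.7 FPKM in female libraries, and overlapped.

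The close relative Wnt7a (ENSRNOG00000048782) was at 12.5, 12.5, 13.8 and 13.3 FPKM in male cultures 1 to 4 and at 7.76, 10.5, 12.2 and 12.2 FPKM in female cultures 1 to 4. All male libraries lay above all female ones, but female 3 and female 4 came close, and the gene was not called (log2 difference 0.28 ± 0.14, limma-trend adjusted p = 0.266). Wnt5a, a ligand known mainly for signalling that does not pass through β-catenin, had the highest ratio between the sexes among the tested members. It stood at 2.17, 2.71, 2.60 and 1.27 FPKM in male cultures 1 to 4 and at 0.823, 1.02, 0.808 and 1.17 FPKM in female cultures 1 to 4. The groups did not overlap, although male 4 (1.27 FPKM) came close to female 4 (1.17 FPKM), and the male mean was 2.29 times the female one. Wnt5a missed the threshold (0.68 ± 0.21, limma-trend adjusted p = 0.0844, range 0.0510 to 0.213 over the 17 alternatives that kept it). Its relative Wnt5b ranged from 0.552 to 1.95 FPKM in male and from 0.559 to 1.67 FPKM in female libraries, which overlapped (0.20 ± 0.26, limma-trend adjusted p = 0.721).

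No ligand was called, and 1 of the 4 tested had an unadjusted p under 0.05, although all 4 differences were positive. Wnt3 and Wnt4 were each above 0 in 6 libraries, at most 0.406 and 0.706 FPKM. Wnt9a (2 libraries, up to 0.826 FPKM), Wnt9b (2 libraries, up to 0.122 FPKM), Wnt2, Wnt2b, Wnt6 and Wnt16 (1 library each, at most 0.567 FPKM) were seen too rarely to compare. Wnt1, Wnt3a, Wnt8a, Wnt8b, Wnt10a, Wnt10b and Wnt11 were listed at 0 in all 8 libraries. A listed 0 need not mean no RNA, since Tnks2, a gene in wide use across cell types, was listed at 0 in all 8 libraries as well.

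**Figure D2:**
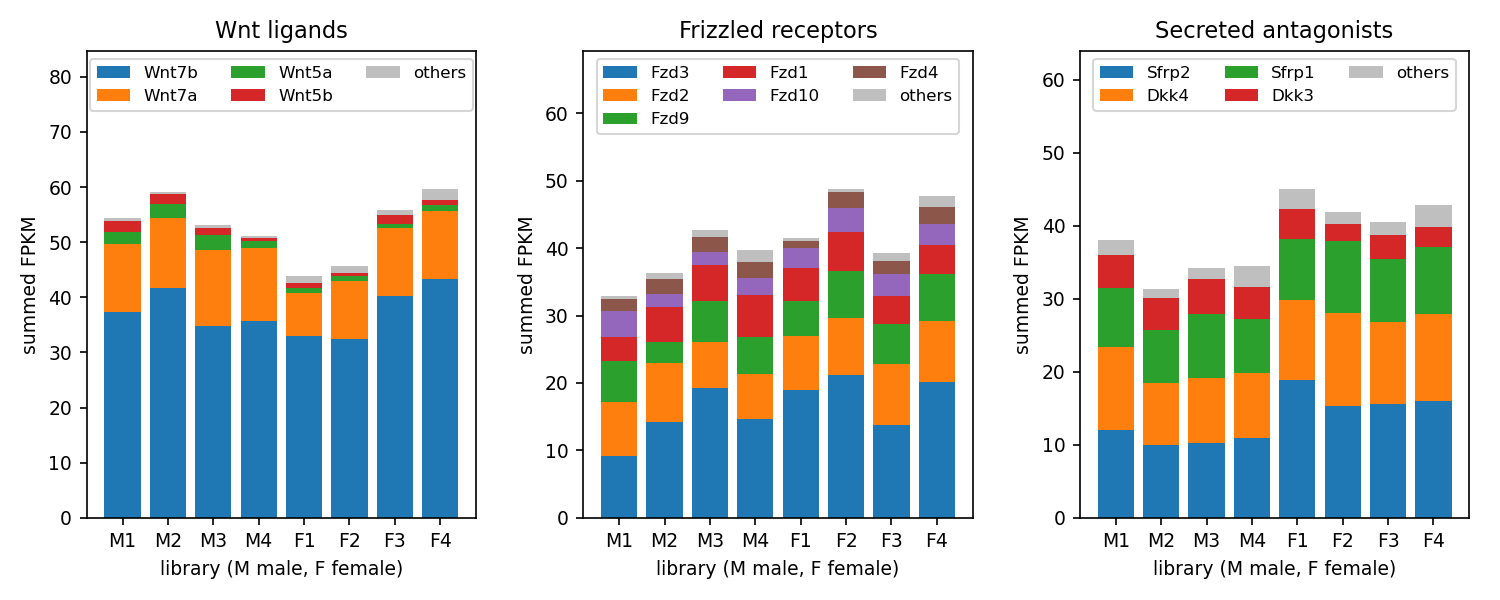
Summed FPKM per library (M1 to M4 male, F1 to F4 female) of the ligands, the Frizzled receptors and the secreted antagonists, with the contribution of each leading gene as a stacked segment. Wnt7b fills the largest part of every ligand bar, and Fzd3 is the largest receptor segment in every library. The antagonist bars of the female libraries (40.5 to 45.1 FPKM) all lie above those of the male ones (31.4 to 38.0 FPKM). These bars hold the called gene Sfrp2 (means of 10.8 FPKM in male and 16.5 in female cultures). No other antagonist was called, and Dkk3 had the higher mean in male cultures (4.54 and 3.11 FPKM).

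Of the 10 receptor genes 6 were tested, with 0 called by limma-trend and 0 at an unadjusted p under 0.05. Fzd3, a receptor with known roles in axon growth and planar polarity, was the most abundant. It stood at 9.10, 14.2, 19.2 and 14.7 FPKM in male cultures 1 to 4 and at 19.0, 21.2, 13.7 and 20.1 FPKM in female cultures 1 to 4. Male 1 and female 3 were the lowest of their sex, and the sexes overlapped (log2 difference -0.38 ± 0.20, 95% interval -0.82 to 0.07, limma-trend adjusted p = 0.322). Fzd3 held 27.6% to 45.6% of the summed FPKM of the 10 receptors over the 8 libraries. Next came Fzd2 at 6.60 to 9.12 FPKM, Fzd9 at 3.21 to 6.999, Fzd1 at 3.56 to 6.23, Fzd10 at 1.90 to 3.91 and Fzd4 at 0.991 to 2.66 over the 8 libraries. Their adjusted p ran from 0.461 for Fzd2 to 0.907 for Fzd1 (limma-trend). Fzd5, Fzd7 and Fzd6 stayed under the mean of 1 FPKM, with highest values of 1.45, 0.821 and 0.136 FPKM, and Fzd8 was listed at 0 throughout. The summed receptor FPKM lay between 32.9 and 42.7 in the male and 39.3 and 48.8 in the female libraries.

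The co-receptor gene Lrp5 (ENSRNOG00000015911) was at 9.05, 10.4, 10.1 and 10.5 FPKM in male cultures 1 to 4 and at 13.2, 11.3, 11.4 and 13.4 FPKM in female cultures 1 to 4. Every female library exceeded every male one, and the gene was not called (log2 difference -0.27 ± 0.11, limma-trend adjusted p = 0.162). Lrp6, the other co-receptor, stood at 6.25, 9.77, 9.36 and 10.2 FPKM in the male and at 11.8, 10.4, 9.27 and 11.97 FPKM in the female libraries. Male 1 lay apart below the rest, female 3 fell within the male range, and the difference was of the same size with a wider error (-0.27 ± 0.15, limma-trend adjusted p = 0.340). The ratio of Lrp5 to Lrp6 was above 1 in each of the 8 libraries (1.02 to 1.45).

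Sfrp2 (ENSRNOG00000009465), a secreted protein that binds Wnt ligands through a Frizzled-like domain, was higher in female cultures. It stood at 11.98, 10.0, 10.3 and 10.9 FPKM in male cultures 1 to 4 and at 18.8, 15.3, 15.6 and 16.1 FPKM in female cultures 1 to 4. The groups were well separated, with the lowest female library above the highest male one, and within each sex replicate 1 was the highest. Means were 10.8 ± 0.872 against 16.5 ± 1.61 FPKM (SD, n = 4), a female level 1.52 times the male one (log2 difference -0.56 ± 0.10, limma-trend adjusted p = 0.0109). The call held in each of 18 alternatives, with adjusted p from 0.0083 to 0.0412. Sfrp2 held 30.2% to 31.9% of the summed FPKM of the 10 antagonists in male and 36.6% to 41.8% in female libraries. That share is built from the same Sfrp2 values that gave the call, so it is no separate evidence. In these female cultures 3 of 7 OPC and 7 of 10 microglia markers were also higher, with the sums given above. Their part in the Sfrp2 difference was not tested. In such bulk libraries more cells of a type and more RNA per cell cannot be told apart.

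The other antagonists were not called. The relative Sfrp1 was at 7.22 to 8.77 FPKM in male and 8.35 to 9.86 FPKM in female libraries, which overlapped (-0.18 ± 0.11, limma-trend adjusted p = 0.401). Within each library Sfrp2 exceeded Sfrp1, by 1.18 to 1.48 times in the male and 1.56 to 2.26 times in the female ones. The ratio, too, is built from the called Sfrp2 values and adds no evidence of its own. Dkk4, of a family that binds the co-receptors, stood at 11.5, 8.46, 8.83 and 8.94 FPKM in male cultures 1 to 4 and at 11.0, 12.8, 11.2 and 11.9 FPKM in female cultures 1 to 4. Only male 1 reached into the female range (-0.29 ± 0.12, limma-trend adjusted p = 0.182). Dkk3, a divergent member of the same family, had its higher values in male cultures, at 4.44, 4.43, 4.86 and 4.40 FPKM in male cultures 1 to 4 and at 4.24, 2.26, 3.31 and 2.65 FPKM in female cultures 1 to 4. The sexes did not overlap, with female 1 close below the male libraries, and the gene was not called (0.45 ± 0.17, limma-trend adjusted p = 0.146). Sfrp4 (0.417 to 1.74 FPKM) and Wif1 (0.126 to 1.63 FPKM), which also binds ligands, lay at the lower edge of the tested range and overlapped (limma-trend adjusted p = 0.934 and 0.527). Notum, an enzyme that removes the lipid from Wnt proteins, was above 0 in 2 libraries (at most 0.200 FPKM) and Sfrp5 in 1 (0.112 FPKM). Dkk1 and Dkk2 were listed at 0 throughout.

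**Figure D3:**
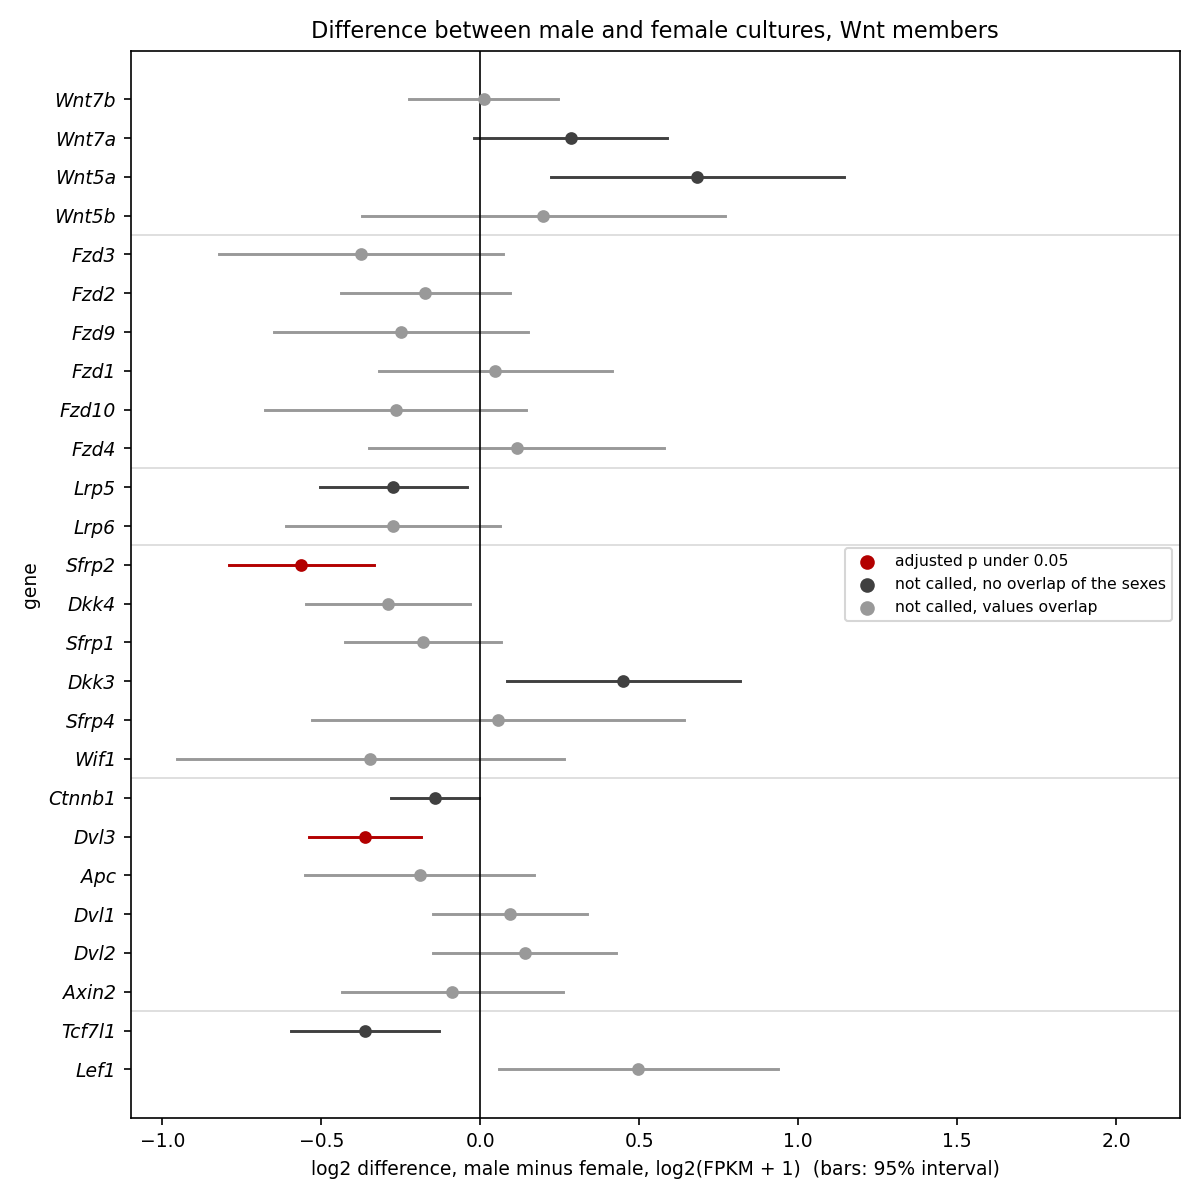
Log2 difference, male minus female, with 95% intervals for the 26 tested members, ordered by role. Red marks the called genes Sfrp2 (-0.56) and Dvl3 (-0.36), dark grey the genes not called whose values did not overlap, and light grey the rest.

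Dvl3 (ENSRNOG00000001708), a Dishevelled gene, was the other called member. It stood at 34.7, 38.6, 32.8 and 34.9 FPKM in male cultures 1 to 4 and at 50.2, 44.0, 43.3 and 44.8 FPKM in female cultures 1 to 4. No values overlapped, and female 1 was the highest library. The means were 35.2 ± 2.45 against 45.6 ± 3.16 FPKM (SD, n = 4), 1.29 times as high in female cultures (log2 difference -0.36 ± 0.08, limma-trend adjusted p = 0.0243). The call was lost without male 3, male 4, female 1 or female 4 (adjusted p of 0.0808, 0.0667, 0.0623 and 0.0666), with relative depth in the model (0.0765) and without trend and robust moderation (0.0557). The part of the OPC and microglia markers (3 of 7 and 7 of 10 higher in the same cultures) was not tested. Neither of its relatives was called. Dvl1 was at 9.90 to 10.7 FPKM in male and 8.25 to 10.9 FPKM in female libraries (0.09 ± 0.11, limma-trend adjusted p = 0.681). Dvl2 was at 7.49 to 9.89 FPKM in male and 6.82 to 8.99 FPKM in female libraries (0.14 ± 0.13, limma-trend adjusted p = 0.599). The ratio of Dvl3 to Dvl1 lay between 3.15 and 3.90 in the male and 3.99 and 5.43 in the female libraries, which did not overlap. That of Dvl3 to Dvl2 lay between 3.51 and 5.16 in the male and 4.89 and 7.37 in the female libraries, which overlapped. These ratios were chosen after the values were seen.

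Ctnnb1 (ENSRNOG00000054172), the gene of β-catenin, which also serves in cell adhesion, was the most abundant member and above 98.1% of all tested genes. It stood at 331, 360, 374 and 359 FPKM in male cultures 1 to 4 and at 426, 391, 376 and 381 FPKM in female cultures 1 to 4. Female values were all above male ones, with male 3 close below female 3, and the gene was not called (-0.14 ± 0.06, limma-trend adjusted p = 0.222). Apc, the scaffold of the destruction complex, was at 14.0, 18.8, 18.7 and 19.3 FPKM in male cultures 1 to 4 and at 25.9, 22.6, 14.6 and 19.4 FPKM in female cultures 1 to 4. The sexes overlapped, with male 1 and female 3 low (-0.19 ± 0.16, limma-trend adjusted p = 0.560), and the sign turned to 0.036 with relative depth in the model. Ctnnb1, Apc, Fzd3, Lrp6 and Fzd1 were each lowest of their sex in both male 1 and female 3. Wnt5b was the only tested member highest of its sex in both. Each of these libraries was the lowest of its sex for 8 of the 26 tested members, which does not set them apart. The count was 7, 5 and 6 for male 2, male 3 and male 4, and 8, 9 and 1 for female 1, female 2 and female 4. How often all genes were lowest or highest of their sex in both male 1 and female 3 was not counted. These 2 libraries deviated alike across 8307 genes (r = 0.42).

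Axin2 (ENSRNOG00000055010), a scaffold of the destruction complex that is itself a widely used target gene of β-catenin, did not separate the sexes. It was at 2.10, 2.66, 2.33 and 1.98 FPKM in male cultures 1 to 4 and at 2.60, 2.01, 2.63 and 2.66 FPKM in female cultures 1 to 4. Both sexes held libraries near 2 and near 2.66 FPKM, so the values interleaved (log2 difference -0.09 ± 0.16, 95% interval -0.43 to 0.26, limma-trend adjusted p = 0.809). The interval leaves room for a difference of up to 0.43 towards female cultures. Its promoter is the one printed above with 2 matches to the TCF/LEF core.

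Among the TCF/LEF factors, Tcf7l1 and Lef1 lay in opposite directions and neither was called. Tcf7l1, mostly known as a repressor, stood at 10.9, 9.17, 8.79 and 10.6 FPKM in male cultures 1 to 4 and at 13.7, 13.2, 12.1 and 12.8 FPKM in female cultures 1 to 4. The sexes did not overlap (-0.36 ± 0.11, limma-trend adjusted p = 0.0721, range 0.0582 to 0.187 over 18 alternatives). Lef1, mostly known as an activator, was at 2.99, 3.76, 3.90 and 2.54 FPKM in male cultures 1 to 4 and at 1.64, 1.59, 3.22 and 1.87 FPKM in female cultures 1 to 4. Female 3 sat among the male libraries, and the other 3 female libraries lay below all of them (0.50 ± 0.20, limma-trend adjusted p = 0.182). Tcf7 was above 0 in 4 libraries, at most 0.541 FPKM.

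Tcf7l2 (ENSRNOG00000049232), the remaining gene of this family, is outside the rule and was read with the other genes of the pathway. It was at 7.69, 7.01, 5.75 and 7.18 FPKM in male cultures 1 to 4 and at 17.7, 10.9, 11.4 and 12.8 FPKM in female cultures 1 to 4. All female libraries exceeded all male ones, female 1 most of all, and the female mean was 1.91 times the male one (6.90 ± 0.823 against 13.2 ± 3.13 FPKM, -0.83 ± 0.15, limma-trend adjusted p = 0.0113). The call held in each of 18 alternatives (adjusted p up to 0.0423). The ratio of Tcf7l2 to Lef1 within a library, chosen after the values were seen, ranged over 1.48 to 2.82 among male and 3.52 to 10.8 among female cultures. Higher in female cultures as well were 3 of 7 OPC, 2 of 8 oligodendrocyte and 7 of 10 microglia markers, whose part was not tested.

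**Figure D4:**
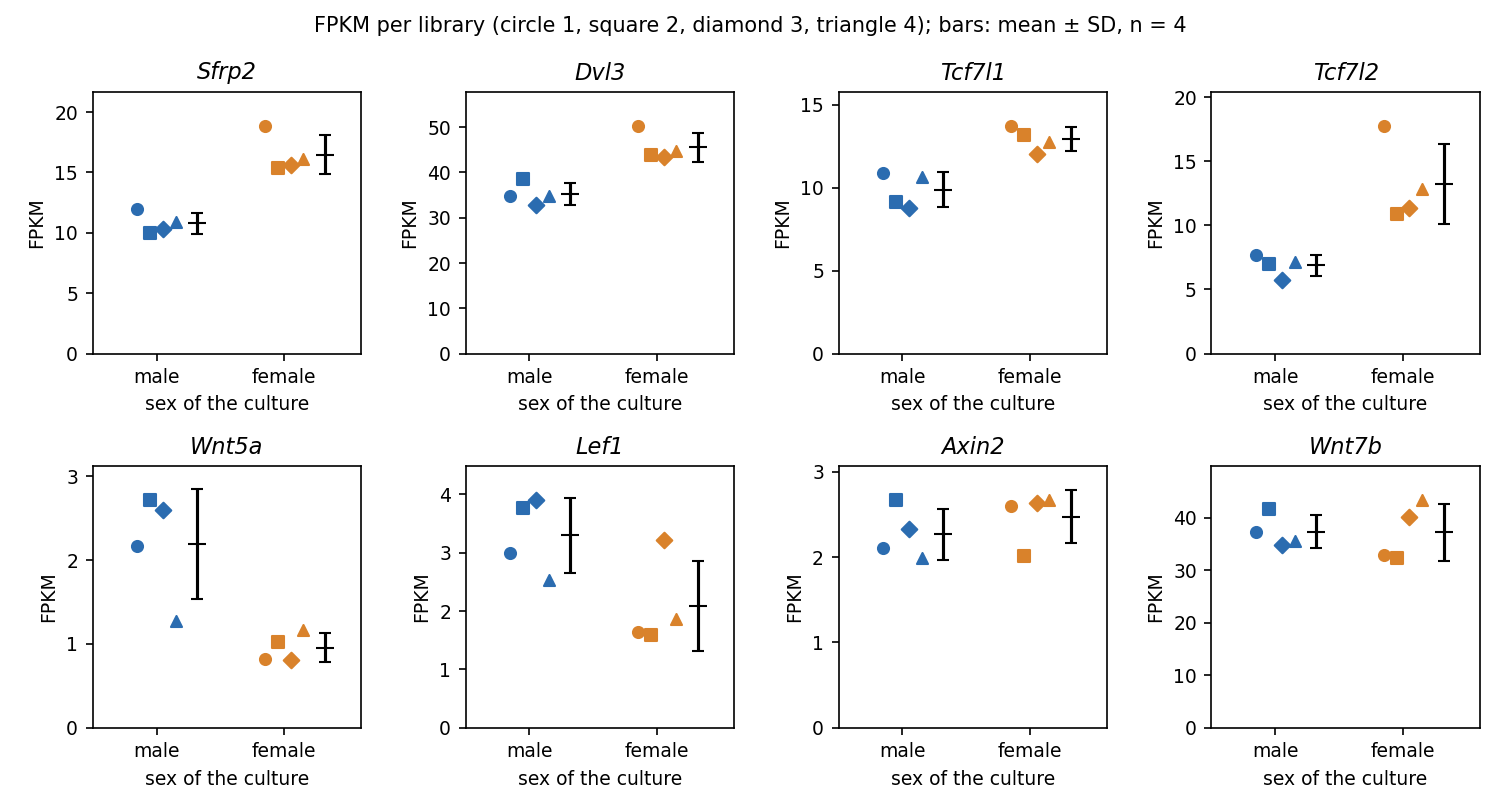
FPKM per library for 8 genes, male in blue and female in orange, with mean ± SD (n = 4) beside the points and axes from 0. Sfrp2, Dvl3, Tcf7l1 and Tcf7l2 lie higher in every female library, Wnt5a in every male one, Lef1 overlaps through female 3, and Axin2 and Wnt7b interleave.

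Beyond the members, 159 pathway symbols were listed in 9 groups. They matched 153 gene identifiers, with Cxxc5 under 2 of them, and 119 were tested. Of these 12 were called (10.1%, against 6.04% of all genes), 8 as higher in female and 4 as higher in male cultures. The median difference of the 119 genes was 0.01. The lists were chosen with earlier results of these data known, so the share describes the lists and cannot show enrichment. The count of 12 fell to 4 without male 2, male 3, male 4 or female 4, to 7 without female 1, to 8 without female 2 and to 5 once relative depth entered the model. For none of the 12 was the part of the cell type markers given above tested. Among 20 nuclear partners limma-trend called 2 as higher in female cultures and 0 in the other direction (4 and 1 at an unadjusted p under 0.05). They were Tcf7l2 and the Groucho family co-repressor gene Tle3, at 21.1 ± 1.56 against 30.0 ± 4.11 FPKM (-0.48 ± 0.11, limma-trend adjusted p = 0.0223). Tle4, of the same family, was not called (adjusted p = 0.0960). Leaving out any 1 of male 2, male 3, male 4 and female 4 took the call of Tle3 away (highest adjusted p 0.0700), as did adding relative depth (0.0642).

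Of 19 genes of the destruction complex 1 was called, the Apc relative Apc2, higher in female cultures. It stood at 20.2, 20.6, 19.2 and 20.4 FPKM in male cultures 1 to 4 and at 33.7, 28.5, 23.7 and 30.4 FPKM in female cultures 1 to 4 (-0.50 ± 0.10, limma-trend adjusted p = 0.0199). The male libraries were close together and the female ones spread upward from them, with female 3 the lowest. It was not called when male 2, male 3, male 4 or female 4 was left out (highest adjusted p 0.0666) and once relative depth was modelled (0.0528). The kinase gene Gsk3b (51.3 ± 11.4 against 65.4 ± 4.70 FPKM) and the tankyrase gene Tnks (23.1 ± 4.34 against 29.7 ± 4.92 FPKM) were not called (limma-trend adjusted p = 0.170 and 0.210).

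Of 6 tested genes listed as other extracellular and membrane antagonists, 1 was higher in male and 1 in female cultures. Igfbp4, which binds insulin-like growth factors and can also block Wnt co-receptors, stood at 15.0, 13.9, 17.0 and 13.3 FPKM in male cultures 1 to 4 and at 5.92, 8.16, 8.34 and 7.29 FPKM in female cultures 1 to 4. The male level was 1.99 times the female one without overlap (0.91 ± 0.13, limma-trend adjusted p = 0.00351), and the call held in each of 18 alternatives. Here too the part of the neuron, OPC and microglia markers was not tested. Tmem59 is on this list, but its membrane protein is known to act together with Frizzled receptors, so its call is not that of a plain antagonist. At 130 ± 8.10 against 155 ± 4.64 FPKM, Tmem59 was called in the other direction (-0.25 ± 0.06, limma-trend adjusted p = 0.0383). It lost its call in 10 of 18 alternatives, among them the omission of any 1 library but male 1 and female 3 (adjusted p up to 0.121). Draxin was not called (adjusted p = 0.502).

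Genes for ligand release and reception outside the members showed little. Neither Porcn, the enzyme that adds the lipid to Wnt proteins (14.7 ± 1.58 against 19.9 ± 5.26 FPKM, limma-trend adjusted p = 0.182), nor Wls, which carries them to the cell surface (22.2 ± 2.56 against 20.6 ± 1.33 FPKM, adjusted p = 0.633), was called. At an unadjusted p under 0.05 stood 1 of the 2, Porcn. In the R-spondin group Lgr4 and Lgr5 were tested and not called (adjusted p = 0.780 and 0.410), with none at an unadjusted p under 0.05. The R-spondin genes Rspo1, Rspo2 and Rspo4 stayed at or under 0.679 FPKM and Rspo3 was listed at 0. None of 7 tested co-receptor genes was called (limma-trend, 1 at an unadjusted p under 0.05). That was Gpc4, a glypican, at 1.13 to 1.76 FPKM in male and 0.307 to 0.822 FPKM in female libraries (0.67 ± 0.22, adjusted p = 0.0962). Ptk7 and Ror2 were not called (adjusted p = 0.382 and 0.444).

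Of 12 intracellular modulators 1 was called, the cyclin gene Ccny, at 73.1 ± 3.58 against 87.7 ± 3.76 FPKM (-0.26 ± 0.07, limma-trend adjusted p = 0.0403). It was no longer called in 11 of 18 alternatives (adjusted p up to 0.128), which include every omission of 1 library but that of female 3. Cxxc4, a Dishevelled inhibitor (-0.53 ± 0.16, adjusted p = 0.0793), and the kinase gene Cdk14 (0.25 ± 0.11, adjusted p = 0.217) were not called. Of 27 genes of the planar polarity and calcium branch, Camk2b was higher in male cultures and Rac1 in female ones. The kinase gene Camk2b was at 42.0 ± 4.82 against 26.3 ± 2.60 FPKM (0.65 ± 0.10, limma-trend adjusted p = 0.00592) and was called in each of 18 alternatives. Of the neuron markers 4 of 8 were also higher in male cultures. The female mean was the higher one for Dcx, Tubb3 and Rbfox3, which were not called. The part of the neuron markers was not tested. Rac1, a small GTPase gene, was at 468 ± 15.0 against 542 ± 17.9 FPKM (-0.21 ± 0.05, adjusted p = 0.0421), and lost its call in 8 of 18 alternatives, among them the omission of any 1 of male 2, male 3, male 4, female 2, female 3 and female 4 (adjusted p up to 0.131). The planar polarity gene Intu, with 0.614 ± 0.349 against 1.72 ± 0.363 FPKM, was not called (adjusted p = 0.0733).

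Genes often named as targets of β-catenin went both ways. Of 24 tested, 2 were higher in male cultures, the cyclin genes Ccnd1 and Ccnd2, and 2 in female ones, the growth regulator Myc and the matrix proteoglycan gene Vcan. The part of the cell type markers in these differences was not tested. Ccnd1 was at 518 ± 44.4 against 327 ± 18.0 FPKM (SD, n = 4; 0.66 ± 0.07, limma-trend adjusted p = 0.00087). Ccnd2 stood at 97.5, 196, 219 and 165 FPKM in male cultures 1 to 4 and at 80.3, 80.4, 78.2 and 70.5 FPKM in female cultures 1 to 4. The female libraries were close together, and male 1 lay nearer to them than to the other male libraries (1.06 ± 0.22, limma-trend adjusted p = 0.0281). Ccnd2 lost its call without any single library but male 1 (adjusted p up to 0.0916) and when relative depth was added (0.0675), and had an adjusted p of 0.0001 without male 1. Vcan was at 28.5 ± 0.854 against 42.4 ± 8.99 FPKM (-0.53 ± 0.13, adjusted p = 0.0409) and was not called in 11 of 18 alternatives, among them every omission of 1 library but that of female 3 (adjusted p up to 0.117). Myc, at 54.4 ± 7.19 against 75.3 ± 6.80 FPKM (-0.47 ± 0.10, limma-trend adjusted p = 0.0209), lost its call without male 2, male 3, male 4, female 1 or female 4 (adjusted p up to 0.0678), when relative depth was added (0.0558) and without trend and robust moderation (0.0593), while Ccnd1 was called in each of 18 alternatives. Axin2 and Lef1, which are targets as well as members, were not called, as given above. The target gene Sp5 was listed at 0 in all 8 libraries.

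**Figure D5:**
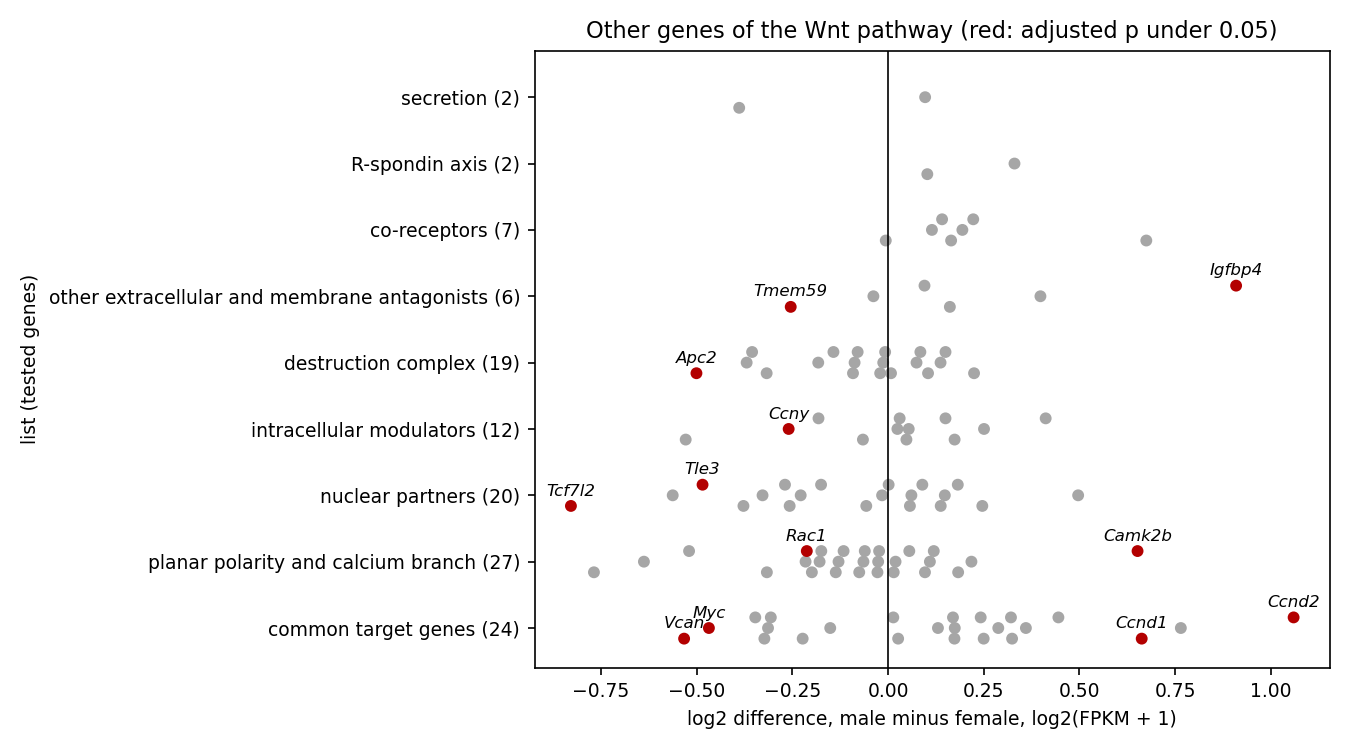
Log2 difference, male minus female, of the 119 tested pathway genes outside the members, 1 point per gene in 9 groups, with called genes in red and named. Called genes lie on both sides of 0, from Tcf7l2 at -0.83 to Ccnd2 at 1.06.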

How the data were processed

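RNA of 8 cultures was prepared for sequencing with an Agilent SureSelect kit that keeps strand, per the labels' protocols. The authors deposited FPKM values, 1 per gene and library, per the file headers. The submitters' processing notes list FastQC and Trimmomatic. For aligner, quantification program, genome build, annotation and use of strand, the sources used here name none, so overlapping genes cannot be told apart with certainty. FPKM holds no counts, so no count model was used and no interval from counting was possible. Low genes carry more error in the shallower libraries.

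Sex and replicate number were taken from the sample titles. Of 32883 genes, those averaging 1 FPKM or more (11263) were tested on the log2(FPKM + 1) scale with limma 3.58.1 in R 4.3.3 with trend and robust moderation, Benjamini-Hochberg adjusted over all tested genes at 0.05. Members and pathway and marker lists were chosen with earlier results of these data known. All members are accounted for. In the pathway lists each called gene and the 3 with the smallest p are named. Markers were named from a fixed set, and Dcx and the called markers outside it after their values were seen. The fit was tested on simulated data. Tried instead were a pseudocount of 0.1 or 5, dropping the filter or raising it to 5 FPKM, quantile and upper quartile normalization, a replicate block, limma without trend and robust moderation, relative depth as a covariate, a threshold of 0.1 and omitted libraries. The replicate numbers were not taken as pairs. Promoters came from RefSeq (GRCr8), and symbols of the members were matched to it exactly.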

Additional observations from a re-analysis of the deposited data

Results flagged for a closer look

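In each sex the highest or lowest of the 4 libraries of a named gene was compared with the other 3 by Dixon's ratio of gap to range. Of 104 groups checked 6 held such a library, and chance gives about 1 in 20. Apc in male 1 was at 14.0 FPKM (others 18.7 to 19.3), Dkk4 in male 1 at 11.5 FPKM (others 8.46 to 8.94) and Camk2b in male 1 at 34.9 FPKM (others 43.6 to 45.4). Dkk3 in male 3 was at 4.86 FPKM (others 4.40 to 4.44). Axin2 in female 2 was at 2.01 FPKM (others 2.60 to 2.66) and Rac1 in female 1 at 515 FPKM (others 547 to 554).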

How the results depend on the processing

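The 2 called members remained 2 with pseudocounts of 0.1 and 5, both other filters, both normalizations and without male 1 and female 3 together. The count was 1 with the replicate block, without trend and robust moderation and with relative depth as a covariate, 4 at a threshold of 0.1, and 1 to 2 with each library left out in turn. The 680 called genes became 397 with the replicate block, 424 without trend and robust moderation, 367 with relative depth as a covariate, 1149 at a threshold of 0.1 and 298 to 803 with a library left out. The 12 other pathway genes became 5 with relative depth as a covariate and 4 to 12 with a library left out. They became 8 with the replicate block, 9 without trend and robust moderation and 9 with no filter. The count rose to 15 without male 1 and female 3 together and to 18 at a threshold of 0.1. Under the replicate block Dvl3 had an adjusted p of 0.0703, but same-numbered libraries did not deviate together (r of -0.19, 0.09, -0.20 and 0.07), and male 1 correlated best with female 3, so the numbers were not read as pairs. The median difference of the members, -0.16, was -0.11 with a pseudocount of 5, -0.072 with no filter (40 members), -0.22 at a mean of at least 5 FPKM (16 members), -0.10 with relative depth as a covariate and -0.16 to -0.090 with a library left out. Signs turned only for genes that were not called. Wnt7b gave -0.0053 with quantile normalization, -0.0072 with upper quartile scaling and -0.056 with relative depth as a covariate, where Apc gave 0.036 and Wnt5b -0.0014. Sfrp4 gave -0.025 without male 1 and female 3. With a library left out, Wnt7b ran from -0.050 to 0.086, Sfrp4 from -0.098 to 0.22, Fzd1 from -0.044 to 0.18, Fzd4 from -0.065 to 0.23 and Lgr4 from -0.012 to 0.19. Other than fewer libraries or genes tested, the cause of these shifts was not tested. Depth limits the low members, since libraries down to 0.303 of the depth of male 1 register them in coarse steps.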
